A study of Sus scrofa with 10 samples.

Results

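The 100 mRNAs described here had their highest level in the blood of 180-day-old pigs. They were chosen by measured values. The deposited values of each library were divided by a median-of-ratios factor, mRNAs with a mean deposited value under 5000 FPKM were ranked by a score, and the 100 highest scores were taken out of 12354 listed mRNAs, of which 12344 were under the limit. FPKM relates the fragments of a transcript to its length and to the size of its library, and a scaled FPKM is an FPKM divided by the factor of its library. The score is log2(scaled FPKM + 1) of the D180 mean minus the highest such value among the means of the other 4 ages. Of the 100 members, 44 could be given a gene symbol and 56 are known by an Ensembl identifier alone, while 21.2% of all listed mRNAs were without a symbol.

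The study followed the development of the immune system in pig blood by sequencing RNA that had been depleted of ribosomal RNA. Whole blood was drawn from 10 healthy female Qingyu pigs, a Chinese breed. There were 2 pigs at each of 5 ages, namely newborn pigs (D0), suckling pigs of 7 days (D7), pigs at weaning at 28 days (D28), pigs at sexual maturity at 180 days (D180) and adults of 2 years (Y2). Every library came from a different animal, no animal was followed over time, and no treatment or altered allele was named for any group, so that the groups differed in age and in whatever else goes with it.

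Whole blood holds red cells and platelets, which carry much RNA of a few genes, beside lymphocytes, monocytes and granulocytes. A newborn piglet depends on antibodies taken up from colostrum, and its own B and T cells meet antigen and increase as it grows. Lymphocyte receptors, complement and interferon-induced enzymes, to which several of the members below belong, are parts of the adaptive and innate defence. In blood taken whole, a change in the number of cells of a type and a change in the RNA of each such cell cannot be told apart.

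The D180 libraries stood apart from the rest. The median-of-ratios factors ran from 0.437 (the first D0 pig) to 3.03 (the second D180 pig), the median deposited mRNA was 0.831 FPKM in the first of these and 5.64 FPKM in the second, and 90.4% of all listed mRNAs were highest at D180 in the deposited values. After scaling 17% were. The factors rest on 11527 mRNAs above 0 in all 10 libraries and assume that most mRNAs do not change. How many reads lie behind a value is unknown, and with 2 pigs at each age the smallest p of an exact two-sided permutation test is 0.333. The 3 contrasts below were therefore tested with limma on log2(scaled FPKM + 1) over all 5 ages at once. In what follows, "rose" and "fell" mean an adjusted p of at most 0.05 (Benjamini-Hochberg over 12354 mRNAs), and a call also needs a log2 difference of 1.5 or more in size. Both limits follow the methods of the study. Adding 1 before taking logs understates the change of genes with low values. All means rest on 2 animals. The p-values rest on the spread between pigs of the same age, which limma pools over the 5 ages and adjusts with that of all mRNAs.

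The D180 peak was plain in most members, as the way they were chosen requires, and it is given as a description with no test. The score ran from 0.32 to 2.21 with a median of 0.42, and 6 members had a score of at least 1. The ratio of the D180 mean to the highest mean of another age had a median of 1.61, and it lay between 1.36 and 3.12 from the 10th to the 90th percentile. It was above 2 in 24 members. In 3 further members, all without a symbol, the 8 other libraries were listed at 0, and no ratio is given. The study listed mRNAs above 0.5 FPKM in at least 1 library, so these 3 were listed through D180 alone. ENSSSCG00000040249, among them, was at 0 in the first D180 pig too and rested on the second. Both D180 pigs lay above all 8 other pigs in 89 members, against 6.33% of all listed mRNAs, and in 43 of the 44 members with a symbol against 46 of the 56 without one. The median scaled FPKM over the members was 0.632, 1.08 and 1.06 at the first 3 ages, 3.07 at D180 and 1.47 in the Y2 pigs. Over all listed mRNAs it stayed between 1.88 and 1.92, which the scaling itself brings about.

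**Figure D1:**
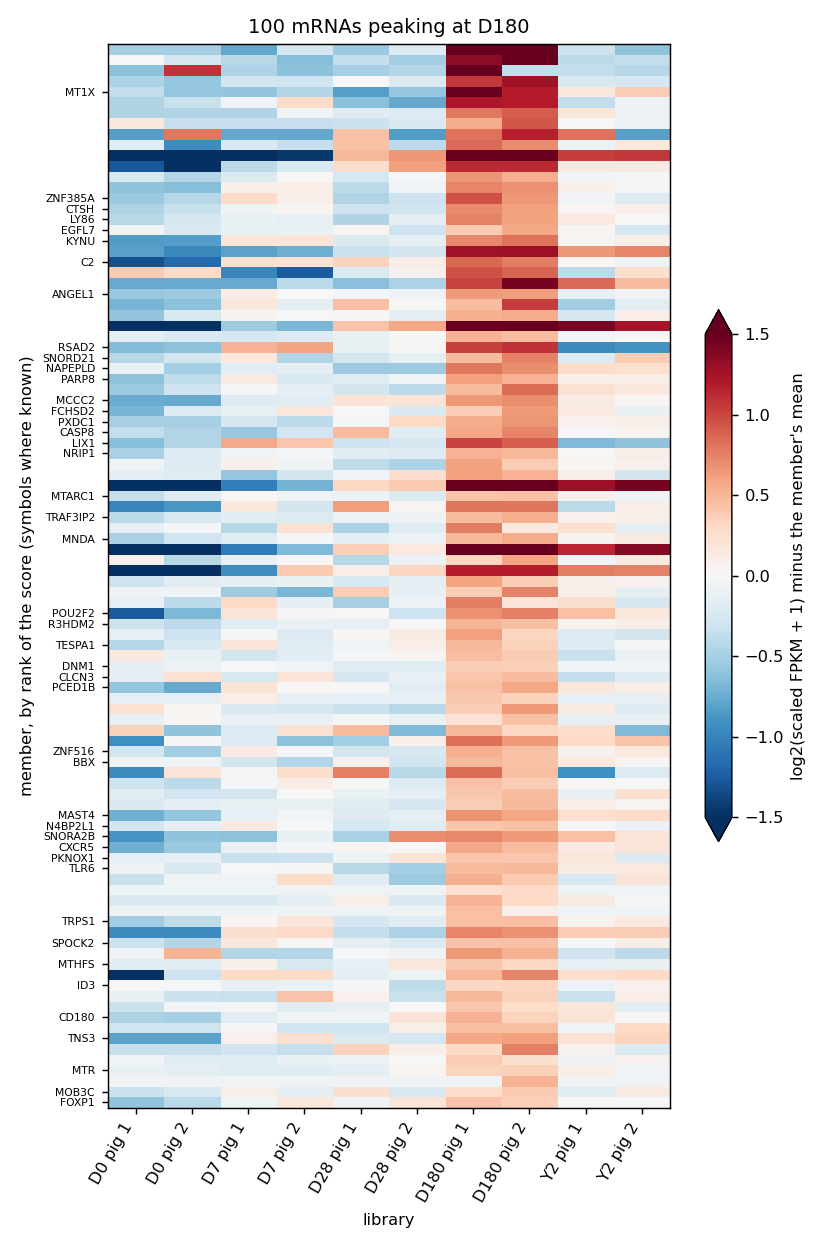
Level of the 100 members (rows, in the order of the score, with symbols where known) in the 10 libraries (columns, 2 pigs at each age), as log2(scaled FPKM + 1) minus the mean of the member over the libraries, with the colour scale cut at 1.5 either way. Both D180 columns are red in nearly every row, 64 members have their lowest mean at D0, and the third row from the top is red in 1 D180 pig alone.

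The other ages had no single order behind the peak. Y2 was the second highest age in 48 members, D7 in 21, D28 in 20 and D0 in 8. D0 was the lowest age in 64 members, D7 in 16, D28 in 14 and Y2 in 6. Levels at D180 were modest. They ran from 0.245 to 54.8 scaled FPKM, with 19 members under 1 (16 of them without a symbol), 68 from 1 to 10 and 13 at 10 or above. A value of exactly 0 was listed in at least 1 library for 22 members, none of which had a symbol, against 6.69% of all listed mRNAs, and such a 0 can be a failed estimate.

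The pigs of an age did not bear out all members equally. The D180 pigs differed by a median of 0.10 on the log2 scale over the members and by 0.08 over all mRNAs, and 56 members were higher in the first pig and 44 in the second. With either D180 pig alone, 99 members remained above every other age, 98 of them with both. The choice had used both of these pigs, so these counts describe the members and test nothing. Choosing 100 mRNAs by the same score on the 5 pigs numbered 1 gave a median score of 0.48 in those pigs and 0.21 in the 5 pigs numbered 2, which the choice had not used. Of these 100, 73 peaked at D180 in the pigs numbered 2, against 17.1% of all mRNAs. Chosen on the pigs numbered 2, the median was 0.47 there and 0.17 in the pigs numbered 1, where 67 peaked at D180 against 16.7% of all mRNAs. The lists shared 35 mRNAs, 18 of them with a symbol.

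The members were chosen from these same values, so their levels on other scalings are a description too. All 100 members had their highest mean at D180 in the FPKM as deposited, as had 90.4% of all mRNAs, and the median difference there from the next age was 1.297 on the log2 scale over the members and 0.63 over all mRNAs. All 100 did so again, as did 64.5% of all mRNAs, when the 10 most abundant mRNAs were removed and the rest of each library was brought to one total, with medians of 0.71 and 0.09. On the scaled values used here the median over all mRNAs was -0.22. Which mRNAs come among the 100 highest depended on the scale, and 36 members were among the 100 highest scores of the deposited values.

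The highest scores belonged to mRNAs without a symbol, which are given here and further on by identifier and were picked for mention after their values were seen. ENSSSCG00000040640 stood at 0.413 and 0.404 scaled FPKM in the D0 pigs, 0.171 and 0.670 in the D7 pigs, 0.361 and 0.732 in the D28 pigs, 6.79 and 5.54 in the D180 pigs and 0.601 and 0.311 in the Y2 pigs. Both D180 pigs lay far above the others, with a D180 mean 11.3 times the next age, and no other library reached 1. ENSSSCG00000036462 stood at 0 and 2.26 scaled FPKM in the D0 pigs, 0.117 and 0 in the D7 pigs, 0.0877 and 0.129 in the D28 pigs, 8.99 and 0.189 in the D180 pigs and 0.190 and 0.139 in the Y2 pigs. This member rested on 1 animal, the first D180 pig, since the second D180 pig lay below 1 D0 pig. Neither mRNA passed the adjusted p in any of the 3 contrasts without D180.

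MT1X had the fifth highest score and the highest of a gene with a symbol. It encodes a metallothionein, a small protein that binds zinc and copper and is made when metal or glucocorticoid levels rise. MT1X stood at 0.561 and 0.343 scaled FPKM in the D0 pigs, 0.329 and 0.475 in the D7 pigs, 0.132 and 0.346 in the D28 pigs, 5.44 and 3.53 in the D180 pigs and 1.24 and 1.60 in the Y2 pigs. Both D180 pigs exceeded every other pig, at 3.15 times the Y2 mean, but they differed from each other by 0.51 on the log2 scale, the largest difference among members with a symbol. Y2 was in turn above D28, by 0.97 on the log2 scale (SE 0.175, limma adjusted p = 0.00338), while neither earlier step passed. Metallothionein genes are close copies of each other, and how reads were divided among copies is not known.

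Among lymphocyte genes, 7 members code for receptors and regulators known from B and T cells, with ratios of the D180 mean to the next age of 1.26 to 1.56. CXCR5 is the chemokine receptor that guides B cells and follicular helper T cells into lymphoid follicles. CXCR5 stood at 0.506 and 0.697 scaled FPKM in the D0 pigs, 1.299 and 1.46 in the D7 pigs, 1.56 and 1.49 in the D28 pigs, 2.68 and 2.43 in the D180 pigs and 1.72 and 1.85 in the Y2 pigs. It was lowest in both D0 pigs and rose from D0 to D7 by 0.57 on the log2 scale (SE 0.0856, limma adjusted p = 0.00110), and the other 2 steps did not pass. CD180, a Toll-like surface receptor of B cells and monocytes, and LY86, the secreted protein that binds it, are known partners and were both members. CD180 stood at 1.27 and 1.21 scaled FPKM in the D0 pigs, 1.78 and 2.00 in the D7 pigs, 1.99 and 2.59 in the D28 pigs, 3.48 and 2.92 in the D180 pigs and 2.58 and 2.13 in the Y2 pigs. LY86 stood at 9.13 and 10.4 scaled FPKM in the D0 pigs, 11.7 and 11.5 in the D7 pigs, 8.90 and 11.3 in the D28 pigs, 21.7 and 19.6 in the D180 pigs and 14.0 and 12.5 in the Y2 pigs. LY86 was the more abundant per length, and neither gene had a D180 pig within the range of the other ages. CD180 rose from D0 to D7 by 0.37 on the log2 scale (SE 0.116, limma adjusted p = 0.0372), a change that was lost when any one of the 4 pigs compared was left out (adjusted p up to 0.152). LY86 was higher at Y2 than at D28 by 0.37 on the log2 scale (SE 0.116, limma adjusted p = 0.0421), which was lost in 7 of 10 fits that each left out 1 library (adjusted p up to 0.216).

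POU2F2, the octamer-binding factor Oct-2, and FOXP1, a forkhead factor, both act in B cell development. POU2F2 stood at 1.07 and 2.10 scaled FPKM in the D0 pigs, 4.66 and 3.91 in the D7 pigs, 3.96 and 2.996 in the D28 pigs, 6.99 and 7.39 in the D180 pigs and 5.74 and 4.57 in the Y2 pigs. It rose from D0 to D7 by 1.06 on the log2 scale (SE 0.193, limma adjusted p = 0.00321), and the D0 pigs did not reach the D7 pigs. FOXP1 stood at 8.05 and 9.27 scaled FPKM in the D0 pigs, 12.03 and 14.2 in the D7 pigs, 12.2 and 14.5 in the D28 pigs, 17.3 and 16.4 in the D180 pigs and 12.5 and 12.7 in the Y2 pigs. FOXP1 was the last member inside the limit of 100, and its D7, D28 and Y2 pigs lay between 12.03 and 14.5, below both D180 pigs. It rose from D0 to D7 by 0.55 on the log2 scale (SE 0.107, limma adjusted p = 0.00455). ID3, an inhibitor of the E proteins that steer lymphocyte development, and TESPA1, which acts in T cell receptor signalling, passed in none of the 3 contrasts, with D180 means 1.27 and 1.39 times the next age.

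**Figure D2:**
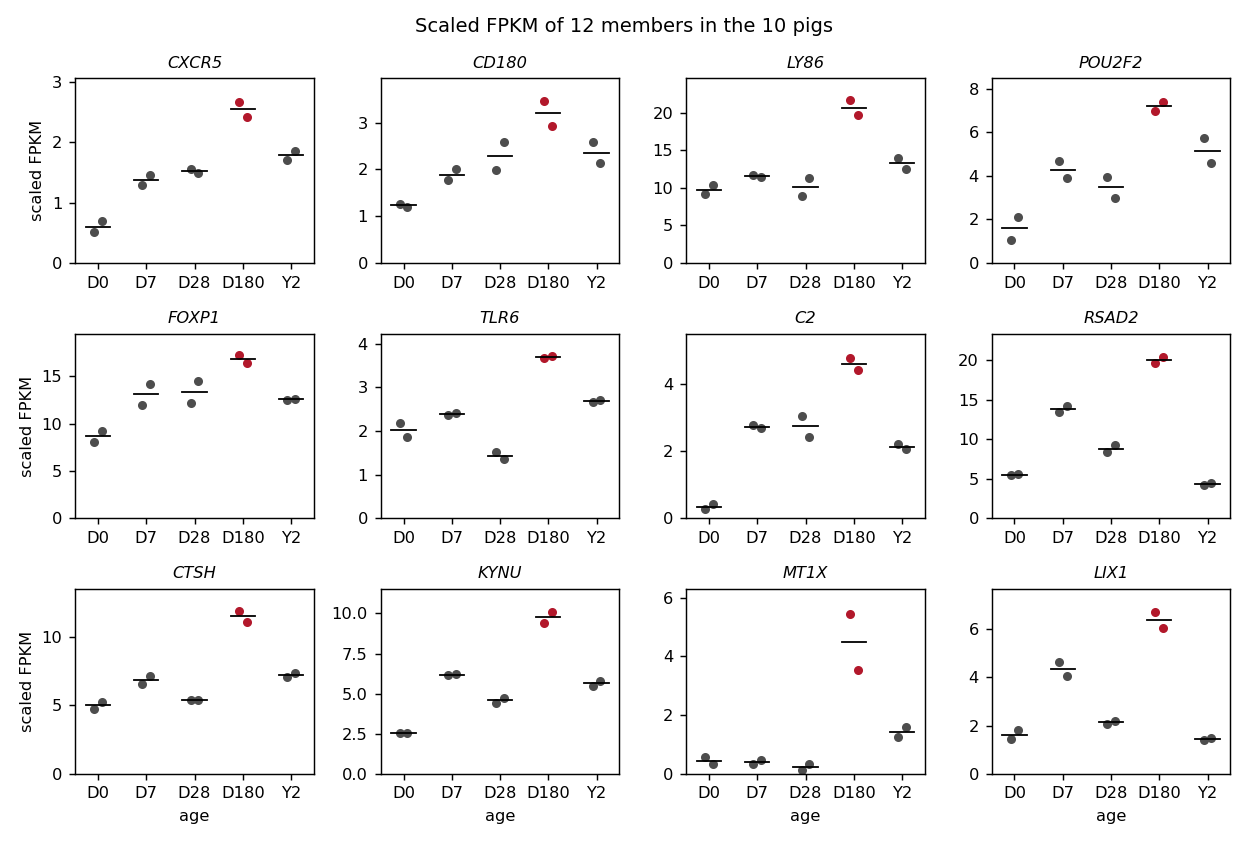
Scaled FPKM (y axis, linear, from 0) of 12 members in the 2 pigs of each age (x axis), with points for pigs, bars for the mean and D180 in red. The D180 points lie above all others in each panel, D0 has the lowest mean for CXCR5, CD180, LY86, POU2F2, FOXP1, C2, CTSH and KYNU, and RSAD2 and LIX1 are lowest at Y2.

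Innate immunity and cell death supplied 6 members, with ratios of 1.37 to 2.15. RSAD2 encodes viperin, an antiviral enzyme induced by interferon. RSAD2 stood at 5.45 and 5.57 scaled FPKM in the D0 pigs, 13.4 and 14.2 in the D7 pigs, 8.39 and 9.21 in the D28 pigs, 19.6 and 20.4 in the D180 pigs and 4.20 and 4.40 in the Y2 pigs. The pigs of an age lay close together and no age overlapped another, in the order D180, D7, D28, D0 and Y2. RSAD2 rose from D0 to D7 by 1.19 on the log2 scale (SE 0.0670, limma adjusted p = 7.47e-06). From D7 to D28 it fell on the scaled values, at -0.60 on the log2 scale (SE 0.0670, limma adjusted p = 2.07e-04), but was higher by 0.24 at D28 on the deposited FPKM and passed there. From D28 to Y2 it fell on all 3 scalings, with a log2 difference of -0.88 on the scaled values (SE 0.0670, limma adjusted p = 2.21e-05). Over the 22 interferon-stimulated genes listed, of which RSAD2 was the only member, 7 were highest at D180, 15 rose and 1 fell from D0 to D7, 18 fell and 0 rose from D7 to D28, and 13 fell and 4 rose from D28 to Y2 (median log2 differences of 0.87, -0.76 and -0.42, against -0.01, 0.02 and -0.02 over all mRNAs). Over all mRNAs 17% were highest at D180, 17.8% rose and 20.1% fell from D0 to D7, 18.4% and 22.8% from D7 to D28, and 15.6% and 16.8% from D28 to Y2. The later steps of this list were not one-sided on the deposited FPKM. From D7 to D28, 6 rose and 6 fell, where 8068 of 12354 mRNAs rose and 729 fell. From D28 to Y2, 10 rose and 8 fell, where 7891 mRNAs rose and 761 fell.

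C2, a protease of the classical complement pathway, was low at birth. C2 stood at 0.279 and 0.413 scaled FPKM in the D0 pigs, 2.76 and 2.69 in the D7 pigs, 3.05 and 2.42 in the D28 pigs, 4.75 and 4.40 in the D180 pigs and 2.21 and 2.05 in the Y2 pigs. The D7 and D28 pigs lay between 2.42 and 3.05, the Y2 pigs slightly lower, and the D180 pigs above all. It rose from D0 to D7 by 1.47 on the log2 scale (SE 0.0981, limma adjusted p = 1.54e-05). TLR6, a receptor that recognises bacterial lipopeptides together with TLR2, took another course. TLR6 stood at 2.18 and 1.86 scaled FPKM in the D0 pigs, 2.37 and 2.41 in the D7 pigs, 1.51 and 1.36 in the D28 pigs, 3.66 and 3.72 in the D180 pigs and 2.67 and 2.71 in the Y2 pigs. It was lowest at D28 and was higher at Y2 than at D28 by 0.60 on the log2 scale (SE 0.0755, limma adjusted p = 4.63e-04). Its step from D7 to D28 was -0.48 on the log2 scale (SE 0.0755, limma adjusted p = 0.00134) on the scaled values and 0.11 on the deposited FPKM, so its direction there depended on the scaling.

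The other 3 of this group were the myeloid nuclear protein MNDA, the death protease CASP8 and TRAF3IP2, the adaptor of the interleukin 17 receptor. MNDA rose from D0 to D7 by 0.28 on the log2 scale (SE 0.0889, limma adjusted p = 0.0363), and CASP8 rose from D7 to D28 by 0.58 on the log2 scale (SE 0.190, limma adjusted p = 0.0384). CASP8 stood at 1.83 and 1.69 scaled FPKM in the D0 pigs, 1.48 and 2.01 in the D7 pigs, 4.12 and 2.27 in the D28 pigs, 4.49 and 5.10 in the D180 pigs and 2.66 and 2.80 in the Y2 pigs. The first D28 pig was near the D180 pigs and the second was near the D7 pigs, and the step was lost in 8 of 10 fits that each left out 1 library (adjusted p up to 0.187). The step of MNDA was lost in 6 of them (up to 0.176). TRAF3IP2 was under 1 scaled FPKM in every library and passed in no contrast, with a D180 mean 2.15 times that of Y2.

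Enzymes and metal-binding proteins made up 9 members with ratios of 1.37 to 3.15. KYNU encodes kynureninase, an enzyme of tryptophan breakdown, and CTSH encodes cathepsin H, a lysosomal protease. KYNU stood at 2.53 and 2.57 scaled FPKM in the D0 pigs, 6.15 and 6.21 in the D7 pigs, 4.44 and 4.71 in the D28 pigs, 9.43 and 10.1 in the D180 pigs and 5.49 and 5.77 in the Y2 pigs. CTSH stood at 4.74 and 5.28 scaled FPKM in the D0 pigs, 6.55 and 7.11 in the D7 pigs, 5.36 and 5.41 in the D28 pigs, 11.9 and 11.09 in the D180 pigs and 7.06 and 7.33 in the Y2 pigs. Both genes were lowest at D0, intermediate at D7 and Y2 and highest at D180. KYNU rose from D0 to D7 by 1.02 on the log2 scale (SE 0.0646, limma adjusted p = 1.25e-05). CTSH rose from D0 to D7 by 0.38 on the log2 scale (SE 0.0729, limma adjusted p = 0.00391), and was higher at Y2 than at D28 by 0.36 on the log2 scale (SE 0.0729, limma adjusted p = 0.00617). Between D7 and D28 both fell on the scaled values (-0.37 and -0.29 on the log2 scale) but rose on the deposited FPKM (0.39 and 0.47), and with the 10 most abundant mRNAs removed the differences were 0.04 and 0.12.

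Leucine and folate metabolism were represented by MCCC2, a subunit of the carboxylase of leucine breakdown, and by MTHFS and MTR, enzymes of the folate and methionine cycles. MCCC2 stood at 1.33 and 1.31 scaled FPKM in the D0 pigs, 2.40 and 2.48 in the D7 pigs, 3.50 and 3.44 in the D28 pigs, 5.11 and 5.30 in the D180 pigs and 3.20 and 2.93 in the Y2 pigs. MCCC2 rose from D0 to D7 by 0.57 on the log2 scale (SE 0.0661, limma adjusted p = 2.89e-04) and from D7 to D28 by 0.38 on the log2 scale (SE 0.0661, limma adjusted p = 0.00237), and the Y2 pigs lay below the D28 pigs. MTHFS and MTR passed in no contrast, with D180 means 1.37 and 1.47 times the next age. NAPEPLD, which makes N-acylethanolamine lipids, was higher at Y2 than at D28 by 0.81 on the log2 scale (SE 0.122, limma adjusted p = 0.00128). NAPEPLD stood at 2.36 and 1.52 scaled FPKM in the D0 pigs, 2.19 and 2.25 in the D7 pigs, 1.45 and 1.45 in the D28 pigs, 5.22 and 4.81 in the D180 pigs and 3.35 and 3.23 in the Y2 pigs. The D28 pigs were the lowest together with 1 D0 pig, and the Y2 pigs lay above every younger pig but those of D180. PARP8, of the ADP-ribose transferases, rose from D0 to D7 by 0.45 on the log2 scale (SE 0.128, limma adjusted p = 0.0242), and this was lost without the first D0 pig or the first D7 pig (adjusted p up to 0.135). MTARC1, a mitochondrial reductase, was 2.01 times its Y2 mean at D180 and passed in no contrast.

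Transcription regulators numbered 6, with ratios of 1.31 to 1.88. TRPS1, a repressor that binds GATA sites, rose from D0 to D7 by 0.55 on the log2 scale (SE 0.0818, limma adjusted p = 0.00104), and ZNF385A, a zinc finger protein, by 0.68 on the log2 scale (SE 0.125, limma adjusted p = 0.00323). TRPS1 stood at 3.26 and 3.69 scaled FPKM in the D0 pigs, 5.25 and 5.90 in the D7 pigs, 4.14 and 4.48 in the D28 pigs, 7.25 and 7.36 in the D180 pigs and 5.31 and 5.75 in the Y2 pigs. ZNF385A stood at 0.492 and 0.639 scaled FPKM in the D0 pigs, 1.69 and 1.34 in the D7 pigs, 0.613 and 0.777 in the D28 pigs, 3.25 and 2.45 in the D180 pigs and 1.13 and 0.918 in the Y2 pigs. In both genes the D7 pigs lay above the D0 and D28 pigs, and the D180 pigs above all. PKNOX1, a homeodomain factor, rose from D7 to D28 by 0.38 on the log2 scale (SE 0.130, limma adjusted p = 0.0458), which was lost in 7 of 10 fits that each left out 1 library (adjusted p up to 0.230). NRIP1, a corepressor of nuclear receptors, rose from D0 to D7 by 0.30 on the log2 scale (SE 0.0959, limma adjusted p = 0.0375), which was lost in 9 of them (up to 0.172). ZNF516, another zinc finger protein, rose from D0 to D7 by 0.45 on the log2 scale (SE 0.0994, limma adjusted p = 0.00828), which was lost without the first D7 pig (adjusted p = 0.0511). BBX, a protein with a high mobility group box, passed in none.

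Membrane, adhesion and matrix proteins were 6 members with ratios of 1.28 to 3.04. TNS3, a tensin that links integrins to actin, rose from D0 to D7 by 0.96 on the log2 scale (SE 0.0812, limma adjusted p = 5.32e-05) and was higher at Y2 than at D28 by 0.51 on the log2 scale (SE 0.0812, limma adjusted p = 0.00179). TNS3 stood at 0.229 and 0.226 scaled FPKM in the D0 pigs, 1.25 and 1.53 in the D7 pigs, 0.840 and 0.802 in the D28 pigs, 2.19 and 2.28 in the D180 pigs and 1.49 and 1.69 in the Y2 pigs. Both D0 pigs were near 0.23 and no D0 pig reached any other pig. SPOCK2, a secreted proteoglycan, rose from D0 to D7 by 0.48 on the log2 scale (SE 0.0769, limma adjusted p = 0.00169). EGFL7, known as a protein secreted by endothelial cells, and DNM1, a dynamin best known from neurons, had ratios of 3.04 and 3.03 at low levels, with D180 means of 0.996 and 0.544 scaled FPKM, and passed in no contrast. CLCN3, an endosomal chloride and proton exchanger, and FCHSD2, which acts in endocytosis and actin assembly, also passed in no contrast. Their D180 means were 1.44 and 1.45 times the next age.

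There were 8 other proteins with ratios of 1.36 to 2.17. LIX1 was named for its expression in the developing limb. LIX1 stood at 1.44 and 1.80 scaled FPKM in the D0 pigs, 4.63 and 4.07 in the D7 pigs, 2.06 and 2.197 in the D28 pigs, 6.68 and 6.06 in the D180 pigs and 1.40 and 1.49 in the Y2 pigs. D180 was followed by D7 and then D28, and the D0 and Y2 pigs overlapped at the low end. It rose from D0 to D7 by 1.03 on the log2 scale (SE 0.0938, limma adjusted p = 7.72e-05). MAST4, a serine and threonine kinase, rose from D0 to D7 by 0.57 on the log2 scale (SE 0.0787, limma adjusted p = 7.44e-04) and was higher at Y2 than at D28 by 0.43 on the log2 scale (SE 0.0787, limma adjusted p = 0.00376). ANGEL1 and PCED1B rose from D0 to D7 by 0.62 and 0.78 on the log2 scale, and R3HDM2 and N4BP2L1 by 0.22 and 0.29, the last 2 being lost in 8 and 2 of 10 fits without 1 library (limma adjusted p up to 0.191 and 0.125). PXDC1 rose from D7 to D28 by 0.46 on the log2 scale (SE 0.111, limma adjusted p = 0.0114), which was lost in 2 such fits (adjusted p up to 0.0653), and MOB3C passed in none. The small nucleolar RNAs SNORD21 and SNORA2B also passed in none, and SNORA2B was the single member with a symbol whose D180 pigs overlapped another age, since the second D28 pig had 2.00 scaled FPKM and the second D180 pig 1.89.

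Contrasts without D180 ask how the members behaved among the ages that did not define the peak. The rule used the highest of these ages, so the contrasts are not wholly separate from the choice of members. From D0 to D7, 36 members rose and 4 fell, where 17.8% of all mRNAs rose and 20.1% fell. By limma with the fold limit, 3 members were called higher (0.575% of all mRNAs) and 0 lower (0.939%, also 0 members without the trend). The median log2 difference was 0.21 over the members and -0.01 over all mRNAs. Of the members with a symbol, 23 rose and 0 fell. On the deposited FPKM 35 members rose and 1 fell, with the 10 most abundant mRNAs removed 45 rose and 2 fell, and 32 rose on all 3 scalings. Among all mRNAs that rose or fell, those that rose were 47.0% on the scaled values, 67.5% on the deposited FPKM and 85.9% with the 10 removed. The 3 members called higher became 6 without the second D0 pig and 5 without the first D7 pig, when 1 member was called lower, and the 4 that fell became 2 without the first D0 pig or the second D7 pig. At an unadjusted p under 0.05, 6 members were lower. With only D0 and D7 in the fit, the rises of PARP8, NRIP1, MNDA, R3HDM2, ZNF516, N4BP2L1 and CD180 did not pass.

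From D7 to D28 the members divided. On the scaled values 14 rose and 16 fell, near the background of 18.4% and 22.8% of all mRNAs, and the median was 0.00 over the members and 0.02 over all mRNAs. Of the members with a symbol, 4 rose (CASP8, PXDC1, MCCC2 and PKNOX1) and 12 fell. The fall depended on the scaling. On the deposited FPKM 53 members rose and 1 fell, the median being 0.41 over the members and 0.46 over all mRNAs, and with the 10 most abundant mRNAs removed 33 rose and 5 fell. Rises were 46.7%, 98.1% and 86.8% of the members that rose or fell on the 3 scalings in this order. Among all mRNAs they were 44.6%, 91.7% and 80.4%. In 6 members, RSAD2, KYNU, TRPS1, CTSH, SPOCK2 and ENSSSCG00000029367, the step passed as a fall on the scaled values and as a rise on the deposited FPKM. The rise of 13 members passed on all 3 scalings. By limma with the fold limit, 1 member was called higher (0.469% of all mRNAs) and 0 lower (1.82%, also 0 members without the trend), while 18 members were lower at an unadjusted p under 0.05. The falls of CTSH, NAPEPLD, N4BP2L1, SPOCK2, TRPS1 and ZNF516 were also lost without at least 1 of the 4 pigs compared, with adjusted p up to 0.163. With only D7 and D28 in the fit, the rises of PXDC1, CASP8 and PKNOX1 and the falls of CTSH, ZNF516, N4BP2L1, TRPS1 and SPOCK2 did not pass.

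From D28 to Y2, which leaves D180 out between them, 22 members rose and 2 fell, where 15.6% of all mRNAs rose and 16.8% fell. The median was 0.14 over the members and -0.02 over all mRNAs. Of the members with a symbol, 10 rose (CTSH, KYNU, LY86, MAST4, MT1X, NAPEPLD, TLR6, TNS3, TRPS1 and ZNF516) and 2 fell, RSAD2 and LIX1. With the fold limit, limma called 0.777% of all mRNAs higher and 2.06% lower and 0 members in either direction, also without the mean-variance trend, while 28 members were higher and 6 lower at an unadjusted p under 0.05. All 22 rises passed on all 3 scalings. On the deposited FPKM 64 members rose and 1 fell (median 0.51, against 0.41 over all mRNAs), and with the 10 removed 52 rose and 3 fell (0.39 against 0.27). Among all mRNAs that rose or fell, those that rose were 48.2%, 91.2% and 85.4% on the 3 scalings. Without the first Y2 pig 13 members rose, and the number that fell was 4 without the second D28 pig and 1 without either Y2 pig. The rises of KYNU, LY86, TRPS1 and ZNF516 and the fall of LIX1 were each lost without at least 1 of the 4 pigs compared (adjusted p up to 0.122, 0.216, 0.146, 0.130 and 0.107), and those of LY86, KYNU and TRPS1 also with only D28 and Y2 in the fit.

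**Figure D3:**
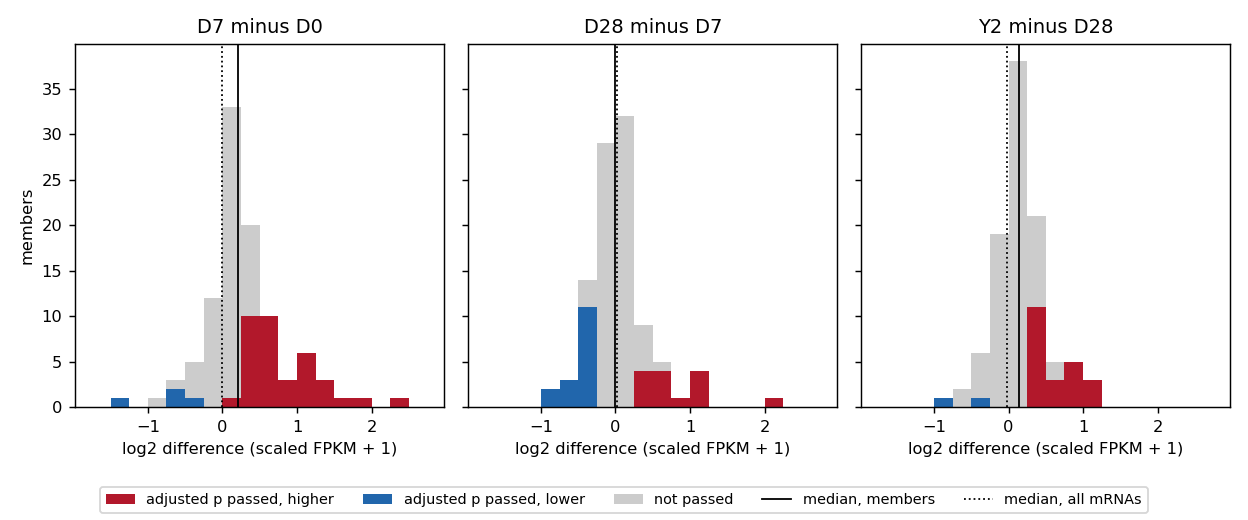
Log2 difference of the 100 members (x axis, on log2(scaled FPKM + 1), bins of 0.25) in the 3 contrasts that leave out D180, with the number of members on the y axis, members that passed the adjusted p in red (higher) and blue (lower), and medians of the members (solid line) and of all mRNAs (dotted line). Rises outnumber falls from D0 to D7 (36 and 4) and from D28 to Y2 (22 and 2) and do not from D7 to D28 (14 and 16).

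Put in sequence, the steps gave a few shared courses. A rise from D0 to D7, a fall to D28 and a higher level at Y2 was found in 7 members, CTSH, KYNU, ZNF516, TRPS1, TNS3, ENSSSCG00000031085 and ENSSSCG00000000423, against 3.91% of all mRNAs. On the deposited FPKM it was found in 0 members and with the 10 most abundant mRNAs removed in 3. RSAD2 and LIX1 rose, fell and fell again (1.05% of all mRNAs), also in 0 members on each of the other scalings. The last step of LIX1, from D28 to Y2, was -0.35 on the log2 scale (SE 0.0938, limma adjusted p = 0.0208) on the scaled values and 0.09 on the deposited FPKM.

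A rise at each of the 3 steps was seen in 3 members without a symbol, against 0.308% of all mRNAs, and in 25 members on the deposited FPKM and 13 with the 10 removed. These 3 were ENSSSCG00000039111, ENSSSCG00000040381 and ENSSSCG00000036127, named after their values were seen, and they were among the most abundant members. ENSSSCG00000039111 stood at 1.40 and 0.433 scaled FPKM in the D0 pigs, 9.76 and 8.67 in the D7 pigs, 19.9 and 22.2 in the D28 pigs, 56.3 and 53.2 in the D180 pigs and 40.7 and 35.6 in the Y2 pigs. ENSSSCG00000040381 stood at 1.24 and 1.07 scaled FPKM in the D0 pigs, 5.59 and 7.22 in the D7 pigs, 15.7 and 16.7 in the D28 pigs, 46.4 and 45.2 in the D180 pigs and 31.7 and 35.5 in the Y2 pigs. ENSSSCG00000036127 stood at 0.253 and 0.478 scaled FPKM in the D0 pigs, 2.34 and 3.34 in the D7 pigs, 7.84 and 6.60 in the D28 pigs, 23.8 and 18.6 in the D180 pigs and 14.2 and 16.9 in the Y2 pigs. In each the ages followed the order D0, D7, D28, Y2 and D180 with no overlap, so that D180 stood above a rise already under way. From D0 to D7 their log2 differences were 2.46, 1.77 and 1.48 (limma adjusted p = 5.06e-05, 1.07e-05 and 2.70e-04), the first 2 past the fold limit. From D28 to Y2 they were 0.83, 1.01 and 1.01, and the first of these was lost without the first D28 pig or the first Y2 pig (adjusted p up to 0.0889). Past the fold limit were 2 other changes. ENSSSCG00000033225 rose from D0 to D7 by 1.60 on the log2 scale (SE 0.336, limma adjusted p = 0.00625), with D7 pigs far apart at 1.64 and 5.56 scaled FPKM, and did not pass with only these ages in the fit (adjusted p = 0.0811). ENSSSCG00000035443 rose from D7 to D28 by 2.18 on the log2 scale (SE 0.125, limma adjusted p = 4.94e-06). ENSSSCG00000035443 stood at 0 and 0 scaled FPKM in the D0 pigs, 0 and 0.234 in the D7 pigs, 3.78 and 4.29 in the D28 pigs, 11.4 and 9.23 in the D180 pigs and 5.90 and 6.04 in the Y2 pigs. It was listed at 0 in 3 of the 4 D0 and D7 pigs, so that its fitted difference depends on the added 1.

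Marker lists show what else moved in the blood at the same ages, on the scaled values. Of 16 lists of marker and response genes, B cell markers held 1 member, CXCR5, and interferon-stimulated genes held 1, RSAD2. The other lists held none. None of their listed markers was at 0 in all libraries. Of 15 B cell markers, 8 were highest at D180 (17% of all mRNAs), and both D180 pigs lay above the others in 7 (6.33% of all mRNAs). From D28 to Y2, 13 rose (15.6% of all mRNAs). All 15 rose there on the deposited FPKM, as did 7891 of 12354 mRNAs, and with the 10 most abundant removed, as did 5856 of 12344. The summed scaled FPKM of the 15 markers was 37.4 in both D0 pigs, 49.9 and 51.8 in the D7 pigs, 68.7 and 65.4 in the D28 pigs, 114 and 115 in the D180 pigs and 120 and 116 in the Y2 pigs. The part of B cell numbers in the levels of the 7 lymphocyte members was not tested.

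The 7 monocyte and macrophage markers had a summed level of 28.9 and 28.1 in the D0 pigs, 39.3 and 39.0 in the D7 pigs, 8.77 and 8.45 in the D28 pigs, 30.3 and 28.5 in the D180 pigs and 23.5 and 23.8 in the Y2 pigs. This sum was lowest at D28, but C1QA and C1QC were lower at D180 than at D28. Of the 7 markers, 5 fell from D7 to D28 (22.8% of all mRNAs) and 5 rose from D28 to Y2 (15.6% of all mRNAs). With the deposited FPKM, 3 of the 7 fell from D7 to D28 and 5 rose from D28 to Y2, where 729 and 7891 of 12354 mRNAs did so. Among members with a symbol, TLR6, CTSH, KYNU, TNS3, NAPEPLD, TRPS1 and ZNF516 also fell from D7 to D28 and rose from D28 to Y2 on the scaled values. Their fall turned to a higher level on the deposited FPKM. The members MNDA and LY86 did not pass from D7 to D28. Summed levels of the 8 neutrophil markers were 213 and 203 in the D0 pigs, 101 and 100 in the D7 pigs, 12.3 and 13.9 in the D28 pigs, 47.9 and 44.0 in the D180 pigs and 62.1 and 60.2 in the Y2 pigs, and those of the 6 eosinophil and basophil markers 21.6 and 21.7 in the D0 pigs, 31.5 and 29.7 in the D7 pigs, 9.26 and 9.87 in the D28 pigs, 32.2 and 30.7 in the D180 pigs and 40.0 and 39.6 in the Y2 pigs, also lowest at D28. Most of the neutrophil sum at D180 was CSF3R, at 35.9 and 33.4 scaled FPKM, and MMP8 and LTF were lower at D180 than at D28. The part of monocytes and granulocytes in the course of the members was not tested. Neither the monocyte nor the neutrophil list had a marker highest at D180, and the eosinophil and basophil list had 1.

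T cell markers (17 genes) summed to 160 and 179 in the D0 pigs, 192 and 195 in the D7 pigs, 285 and 282 in the D28 pigs, 218 and 219 in the D180 pigs and 197 and 195 in the Y2 pigs, and 2 were highest at D180 (17% of all mRNAs). On the deposited FPKM the T cell sum was instead highest at D180, as were 90.4% of all mRNAs. Cytotoxic and NK markers (16 mRNAs) peaked at D28, at 407 and 357, against 88.2 and 77.2 at D180, and none was highest at D180. Of 6 genes of MHC class II antigen presentation 3 were highest at D180, of 10 plasma cell markers 2, and of 14 clock and glucocorticoid response genes 3, against 17% of all mRNAs. None of 11 immediate early and heat shock genes, 7 inflammatory cytokines and chemokines, 10 cell cycle genes, 8 platelet markers and 16 erythroid markers was. The list of genes of tissues other than blood had 0 genes in the table.

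Erythroid markers were lowest at D180, as a summed scaled FPKM of 47552 and 37566 in the D180 pigs, against 148746 and 178531 at Y2 and 1105010 and 1057370 at D0. Nearly all of this sum was HBB, at 46553 and 36692 scaled FPKM in the D180 pigs. The other erythroid markers also had their lowest mean at D180. Platelet markers were 106 and 93.0 at D180, 52.3 and 55.3 at Y2 and 339 and 337 at D0. On the deposited FPKM the platelet sum was highest at D180, as were 90.4% of all mRNAs, and the erythroid sum was lowest there too. The age of the peak was thus the age of the lowest erythroid RNA. The part of erythroid RNA in the peak was not tested.

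**Figure D4:**
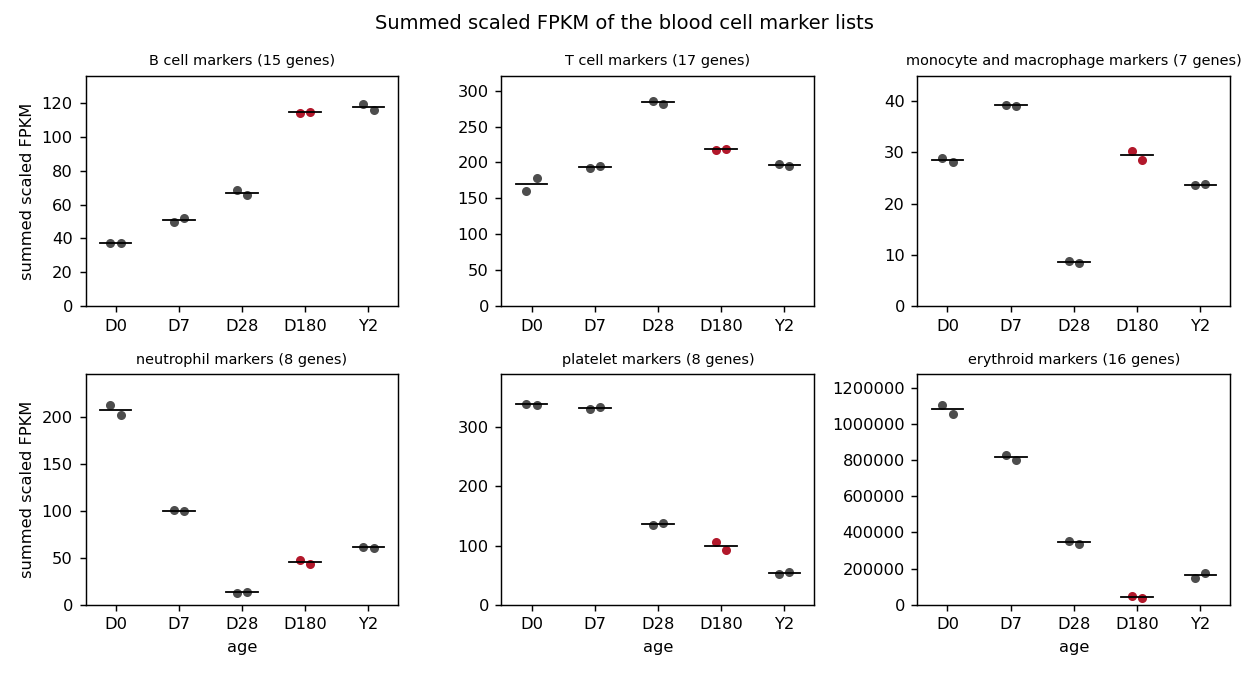
Summed scaled FPKM (y axis, linear, from 0) of 6 marker lists in the 2 pigs of each age (x axis), with points for pigs, bars for the mean and D180 in red. The sum of the B cell markers reaches 114 to 120 at D180 and Y2. The monocyte and neutrophil sums are lowest at D28, and the erythroid sum, nearly all HBB, is lowest at D180.

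Positions were read from RefSeq on Sscrofa11.1, the build of the deposited files, for the 37 members whose symbol had one position there, and all 37 are protein-coding genes. The genes spanned a median of 49189 bp from start to end, against 29686.5 bp over 9082 mRNAs with a position. They carried 16 chromosome labels, 1 of them (EGFL7) a sequence with no chromosome assigned, with 5 on chromosome 7 and 4 each on chromosomes 13 and 16. MAST4 (chromosome 16, 44972519 to 45562100) and CD180 (45571252 to 45588032) are neighbours, 9152 bp apart, and ZNF385A (chromosome 5, 19560317 to 19583254) lies 383369 bp from TESPA1 (19966623 to 20017476). MAST4 and CD180 had different courses in that MAST4 was higher at Y2 than at D28 and CD180 did not pass there, a difference that was not itself tested.

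Within 6 of these genes the authors' assembly placed 10 lncRNAs, 3 in FCHSD2, 2 each in R3HDM2 and MAST4 and 1 each in CASP8, CLCN3 and FOXP1. All 10 were highest at D180 in the deposited FPKM, as were 67.8% of all 5946 lncRNAs, and 8 were after division by the mRNA factors, as were 31.4%. The lncRNA in FOXP1 (TCONS_00047966, chromosome 13, 52747506 to 52748896) had scaled FPKM of 0.3801 and 0.776 in the D0 pigs, 0.817 and 1.05 in the D7 pigs, 0.619 and 0.515 in the D28 pigs, 1.63 and 1.57 in the D180 pigs and 1.199 and 1.08 in the Y2 pigs. Both D180 pigs were above the rest. In CASP8, TCONS_00068955 (chromosome 15, 104941770 to 104944212) had 0.853 and 0.890 at D28, 1.21 and 1.29 at D180 and 0.955 and 0.811 at Y2. The exceptions were the lncRNA in CLCN3, highest at D7, and 1 of those in MAST4, highest at D28. These lncRNAs come from the same reads as their genes, and the strand of the genes was not compared.

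The limit of 100 fell within a dense run of scores. The last members inside were MTR (0.32), MOB3C (0.32) and FOXP1 (0.32), with ENSSSCG00000032255 and ENSSSCG00000040249, and the first outside were ENSSSCG00000028382 and SBF2 (both 0.31), followed by ENSSSCG00000035039, ENSSSCG00000038921 and EEIG1. EEIG1 stood at 2.15 and 1.78 scaled FPKM in the D0 pigs, 4.88 and 4.50 in the D7 pigs, 5.18 and 4.58 in the D28 pigs, 8.27 and 8.24 in the D180 pigs and 6.504 and 6.42 in the Y2 pigs. EEIG1, just outside, had both D180 pigs above all others in the same way as MTR and FOXP1 just inside.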

How the data were processed

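Whole blood RNA of 10 pigs, 2 at each of 5 ages, was grouped by the ages in the sample labels. The authors aligned the reads to Sscrofa11.1 with HISAT2 (2.0.4) and quantified mRNAs with StringTie (1.3.3), and they assembled lncRNAs from the same reads and merged and compared them with Cufflinks (2.2.1), after base calling with CASAVA (1.8.2) per the submitters' processing notes. The version of StringTie used to assemble lncRNAs is given differently in the study's methods and is not restated. They deposited FPKM values of 12354 mRNAs and 5946 lncRNAs, and no listed mRNA stayed at or under 0.5 FPKM throughout. Depth per value is unknown and no interval for counting error is given.

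A median-of-ratios factor over 11527 mRNAs was divided out of each library, and the members were the 100 highest scores. Members and lists were chosen with earlier results of these data known. The mRNAs named were members with a symbol that ranked high, moved most in a contrast, stood in a list, carried a lncRNA or lay at the limit, and others are said to be chosen after their values were seen. Symbols came from a table of Ensembl identifiers (9735 of 12354 matched), and positions from RefSeq.

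D7 against D0, D28 against D7 and Y2 against D28 were tested with limma 3.58.1 (R 4.3.3) on log2(scaled FPKM + 1) with a mean-variance trend, all 10 libraries and no block. Tables and plots were made in Python 3.11.15 (numpy 2.4.6, pandas 2.3.3, matplotlib 3.10.9). Tested on simulated data of the contrast of Y2 with D28 over 12354 mRNAs, limma recovered 198 of 200 changed mRNAs with 0 false calls, and the score recovered 100 of 100 mRNAs raised at D180. The changes planted for limma were all past the fold limit and in mRNAs above a minimum mean level. Their recovery therefore tells nothing about smaller changes or mRNAs with low values, as in most members. The alternatives were FPKM as deposited, removal of the 10 most abundant mRNAs, a pseudocount of 0.1, a filter on low values, only the ages compared, limma without the trend, a block for the pig number, no fold limit, 1 pig number alone and each library left out. Scores in pigs that a choice had not used, and each D180 pig alone, were added after seeing the data. No sequence was read, and motif counts in promoters were not run because no promoter sequence was used here.

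Pig numbers come from the labels, but same-numbered pigs are different animals. The differences between pigs 1 and 2 correlated between ages at r of -0.0930 to 0.0609 over all mRNAs, and 0 of 10 pairs of ages exceeded 0.1. A low correlation cannot show that same-numbered pigs had nothing else in common.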

Additional observations from a re-analysis of the deposited data

How the results depend on the processing

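On FPKM as deposited, with the 10 most abundant mRNAs removed and with a pseudocount of 0.1, in this order, the members called higher with the fold limit were 2, 5 and 10 at D7 against D0 (main 3), 4, 3 and 5 at D28 against D7 (main 1) and 5, 1 and 3 at Y2 against D28 (main 0). Members called lower were 0 except, with the pseudocount of 0.1, 3 at D7 against D0 and 1 at D28 against D7. All mRNAs called higher were 122 (10 removed) and 293 (pseudocount) at D7 against D0, 249, 124 and 259 at D28 against D7 and 312, 228 and 372 at Y2 against D28. All mRNAs called lower were 55, 32 and 286, then 47, 99 and 584, then 111, 158 and 426. By the adjusted p alone, members higher and lower in the 3 contrasts in turn were 36 and 4, 14 and 16, and 22 and 2, and all mRNAs 2197 and 2481, 2267 and 2812, and 1930 and 2077. On the deposited FPKM the members by this limit were 35 and 1, 53 and 1, and 64 and 1, and with the 10 removed 45 and 2, 33 and 5, and 52 and 3. With only the ages compared in the fit, 2 were lower at D7 against D0 and 4 at Y2 against D28. The median over the members moved to 0.35 (10 removed) and 0.525 (pseudocount) at D7 against D0, to 0.41 (deposited) and 0.20 (10 removed) at D28 against D7, and to 0.51, 0.39 and 0.24 (deposited, 10 removed, pseudocount) at Y2 against D28. The median D180 score moved to 1.297, 0.71 and 0.67 with these 3 settings, and to 0.21 and 0.17 in pigs not used for the choice. The rule picked 36, 45 and 51 of the members again with them, and 61 and 56 on the pigs numbered 1 or 2 alone. Of 63 single changes, 11 reversed on the deposited FPKM: from D7 to D28 those of CTSH (0.47), KYNU (0.39), RSAD2 (0.24), NAPEPLD (0.17), ZNF516 (0.15), N4BP2L1 (0.14), TLR6 (0.11), TRPS1 (0.43), SPOCK2 (0.57) and TNS3 (0.0710), and from D28 to Y2 that of LIX1 (0.0929). With the 10 removed, 4 reversed, CTSH (0.12), KYNU (0.0405), TRPS1 (0.0927) and SPOCK2 (0.18). Others of the 63 kept their direction but no longer passed, 2 on the deposited FPKM, 7 with the 10 removed, 2 with the pseudocount of 0.1 and 19 with only the ages compared in the fit. The cause of these shifts was not tested.

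Leaving out each library gave 3 to 6 members called higher and 0 to 1 lower at D7 against D0 (all mRNAs 67 to 88 and 106 to 140), 1 and 0 at D28 against D7 (55 to 68 and 205 to 245) and 0 and 0 at Y2 against D28 (87 to 106 and 244 to 273). By the adjusted p alone the members were 27 to 34 and 2 to 5, 10 to 13 and 11 to 17, and 13 to 25 and 1 to 4, with medians of 0.21 to 0.24, -0.06 to 0.00 and 0.13 to 0.19. The outlying counts came without the second D0 pig (6), the first D0 pig or second D7 pig (2), the first Y2 pig (13 and 1), the second Y2 pig (1) and the second D28 pig (4). Between 72 and 94 members were picked again, with a median score of 0.40 to 0.44. Of the 63 single changes, 23 were lost in at least 1 of these fits. The pig number as a replicate block, which pairs no animals, gave 33 and 3, 12 and 15, and 20 and 3 members by the adjusted p, and 3, 1 and 0 called higher, and 5 single changes were lost (R3HDM2, CD180, CASP8, PKNOX1 and LY86). The filter on low values and limma without the trend moved no count of calls by over 1.5 times and lost none of the 63.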
